A study of Arabidopsis thaliana with 4 samples.

Results

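The prp31 and zop1 mutants of Arabidopsis thaliana were compared with each other directly. For each locus the value was log2(FPKM + 1) in the prp31 library minus log2(FPKM + 1) in the zop1 library, where FPKM counts fragments scaled by transcript length in kilobases and by each 1000000 fragments mapped. A locus entered if its values averaged 1 FPKM or more over all 4 libraries of the series, which kept 19240 of the 34133 in the table. The wild type library took no part in the difference, and it is shown with sta1 beside the values. A positive difference means more transcript in prp31, and a negative one more in zop1.

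The study measured polyadenylated RNA in 10-day-old seedlings of the C24 accession, namely the unmutated wild type, prp31, zop1 and sta1. Every genotype has a single library. All 4 genotypes share the C24 background and grew on MS agar at 23 °C in cycles of 16 h light and 8 h dark. The labels name no allele or lesion for any of the mutants, no number of plants and no batch or date. Whole seedlings were ground, so less RNA per cell and fewer cells of a type cannot be told apart in any value below. With 1 library a side there is no replicate check, and every difference describes these libraries and not the genotypes.

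PRP31 is a protein of the U4/U6.U5 tri-snRNP, the particle that joins the spliceosome before it is activated, and it holds U4/U6 and U5 together. ZOP1 binds nucleic acids through a zinc finger, works in RNA-directed DNA methylation, and is tied to pre-mRNA splicing. STA1, a PRP6-like protein, belongs to the same tri-snRNP. Several genes of iron deficiency, sulfur limitation and fast stress signalling differed by more than 2-fold between the prp31 and zop1 libraries. In iron-poor plants, basic helix-loop-helix (bHLH) factors of subgroup Ib and the short IRON MAN peptides are switched on, and they drive uptake and distribution of iron. In sulfur-poor plants, LSU and SDI genes, sulfate reductases and enzymes that free sulfur from glucosinolates and glutathione rise.

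Iron genes were among the largest falls in prp31 relative to zop1, and 3 of those past 2-fold carried the G-box CACGTG, a site bound by bHLH factors, in the 250 bases before their start. These windows are shown because they hold the G-box and precede 3 genes past 2-fold whose iron regulation is well known. They were read from the TAIR10.1 reference genome of the Columbia accession, so the C24 sequence can differ. Each is printed 5′ to 3′ on the gene's strand, with the G-box in capitals. The window of BHLH100 is chr2:17199455-17199704, that of BHLH38 chr3:21085246-21085495 and that of OPT3, a transporter that loads iron into the phloem, chr4:9250344-9250593, all on the minus strand.
BHLH100: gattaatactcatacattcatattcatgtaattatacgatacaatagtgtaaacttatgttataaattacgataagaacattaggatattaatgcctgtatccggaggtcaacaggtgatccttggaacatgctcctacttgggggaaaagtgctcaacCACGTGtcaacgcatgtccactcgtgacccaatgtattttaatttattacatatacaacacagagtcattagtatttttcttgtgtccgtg
BHLH38: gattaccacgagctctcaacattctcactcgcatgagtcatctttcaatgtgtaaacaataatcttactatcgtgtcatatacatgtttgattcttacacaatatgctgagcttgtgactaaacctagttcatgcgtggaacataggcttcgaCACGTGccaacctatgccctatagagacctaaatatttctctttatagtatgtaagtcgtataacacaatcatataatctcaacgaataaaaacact
OPT3: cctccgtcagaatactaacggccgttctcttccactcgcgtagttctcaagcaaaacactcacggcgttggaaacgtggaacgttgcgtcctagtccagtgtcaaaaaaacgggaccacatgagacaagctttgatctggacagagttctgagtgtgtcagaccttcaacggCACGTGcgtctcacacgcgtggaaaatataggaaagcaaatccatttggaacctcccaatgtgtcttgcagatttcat
The G-box, which reads the same on both strands, was in 1376 of the 18517 windows of tested protein-coding loci (7.43%). It was in 12 of the 110 windows of such loci lower in prp31 (10.9%) and in 7 of the 159 windows of those higher in prp31 (4.40%). Beside BHLH100 and BHLH38, the window of BTS held it too, so 3 of 16 iron deficiency regulators did. OPT3 was the only 1 of 19 iron uptake and distribution genes with a match. Among the members past 2-fold, 2 of 6 regulators and 1 of 3 uptake and distribution genes had a match. The windows of BHLH39, IMA1, IMA2, IMA3, NAS2 and S8H had none. A match is a description of the letters, not a bound site.

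The depth implied by the deposited values, in units of 1000000 reads, was 54.6 for prp31, 40.7 for zop1, 49.2 for C24 and 44.3 for sta1. These depths are lower bounds, because a common divisor of all read numbers would leave no trace in the table. Between 19066 and 19188 loci reached 1 FPKM in a library. All 279 loci of the chloroplast and mitochondrial genomes were listed at 0 throughout, so a value of 0 need not mean that no transcript was there. The 95% intervals given below are exact binomial intervals on the whole reads recovered from the values, where these could be had. They cover counting error only.

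The mutated genes came first. In TAIR10.1 PRP31 (AT1G60170) lies on chromosome 1, 22192758 to 22195400, and its level was 16.4 FPKM in prp31, 25.1 in zop1, 23.2 in C24 and 23.7 in sta1, a prp31 minus zop1 difference of -0.58. ZOP1 (AT1G49590, chromosome 1, 18354744 to 18356733) had 12.8 FPKM in prp31, 7.99 in zop1, 14.1 in C24 and 15.02 in sta1, a difference of 0.61. Each of these transcripts was thus lowest in the library of its own mutant, and neither reached 2-fold between prp31 and zop1. STA1 (AT4G03430) was at 15.5 FPKM in prp31 and 15.6 in zop1, against 14.1 in C24 and 18.9 in sta1. Because the lesions are not named, a transcript that is still present says nothing of the protein.

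Most loci had similar levels in both libraries. A locus was counted when its difference reached 1 in size, called 2-fold below. By that rule 214 loci were higher in prp31 (1.11% of those tested) and 168 were lower (0.873%), together 1.99%. The median difference over all tested loci was -0.01, and 48.1% of them lay above 0. Among the 18518 protein-coding loci with a transcript of at least 300 nt, 159 were higher (0.859%) and 110 lower (0.594%), together 1.45%. In that class 71.2% of loci differed by less than 0.25 and 91.2% by less than 0.5, with an SD of 0.322 over loci. Only 15 loci in each direction reached a difference of 2, and some of these were listed at 0 in prp31 or zop1.

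**Figure D1:**
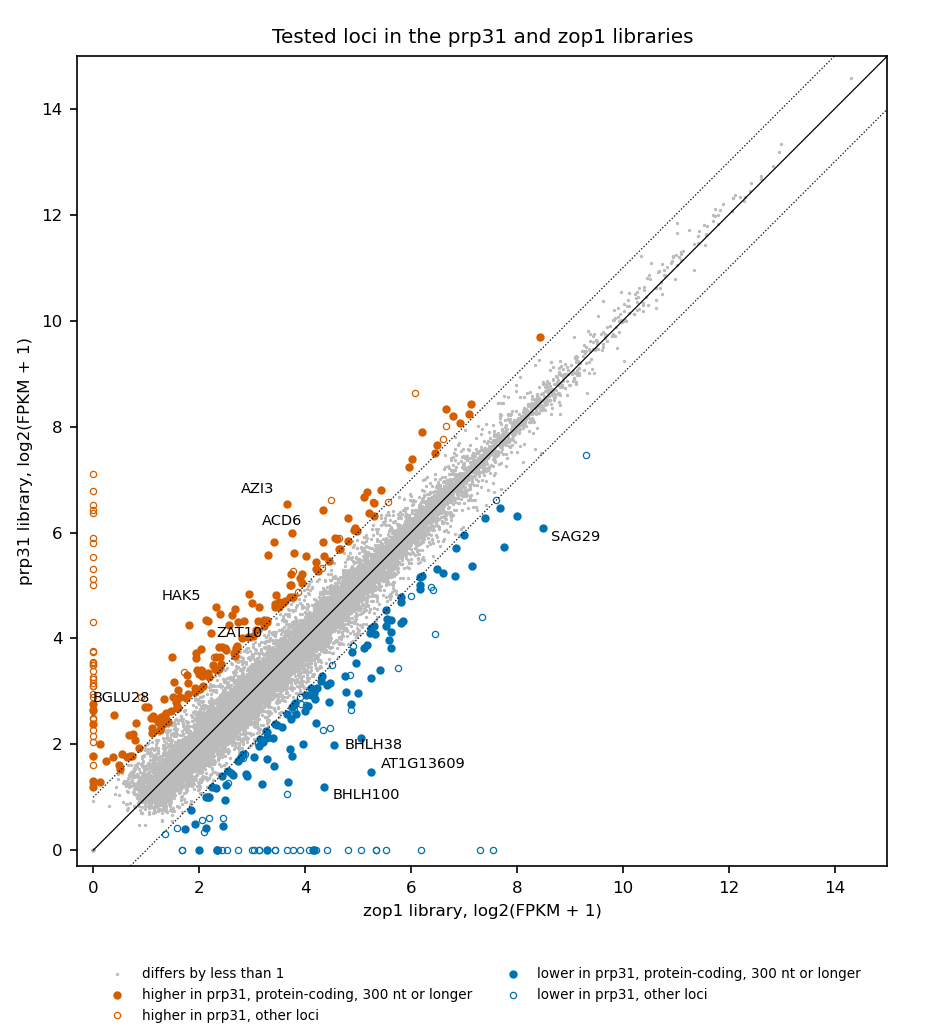
Each point is 1 of the 19240 tested loci, with log2(FPKM + 1) in the zop1 library on the horizontal axis and in the prp31 library on the vertical axis. The solid line marks equal values and the dotted lines a difference of 1. Filled points are the 159 higher and 110 lower protein-coding loci, open points are other loci past 2-fold, and many of the open points lie at 0 in 1 of the libraries.

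The remaining 722 loci, short, not protein-coding or missing from the annotation, passed the rule far more often, with 55 higher (7.62%) and 58 lower (8.03%). Missing from the annotation were 7 of these higher and 8 of these lower loci. Many of them rest on a handful of reads. At 42 of all higher and 34 of all lower loci the lower library was listed at 0, and 6 of each were protein-coding loci of at least 300 nt. The highest of those listed at 0 in zop1 were a proline tRNA (AT2G07762, 137 FPKM from 3 reads in prp31), the MIR156a precursor (109.6 FPKM from 2 reads) and a snoRNA (AT2G20722, 91.1 FPKM from 2 reads). The highest listed at 0 in prp31 were the MIR170 precursor (185 FPKM in zop1), a proline tRNA (AT1G28720, 158 FPKM) and the snoRNA U60.2F (72.2 FPKM). No fold is given for such loci.

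Read support was high for most protein-coding loci past 2-fold. Whole reads were recovered for 115 of the 159 higher loci, with a median of 631 reads in both libraries together, and for 74 of the 110 lower loci, with a median of 575. The counting interval of the ratio held 1 at 7 of the 111 higher and 2 of the 70 lower loci for which it could be computed. At the edges of the rule, ZAT6 just reached 1 (1.004) and AT4G10270 just missed it (0.995). On the other side AT2G01260 just reached it (-1.001) and AT1G19900 just missed it (-0.997). At the edge of the filter, AT5G35777 was inside with a mean of 1.0003 FPKM, and AT2G11891 was outside with 0.998.

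Among protein-coding loci above 0 in both libraries, the largest rise in prp31 over zop1 was that of AZI3 (AT4G12490, chromosome 4, 7409621 to 7410406). AZI3 is a gene for a small lipid-transfer-like protein of the EARLI1 family. It was at 92.2 FPKM in prp31, 11.6 in zop1, 17.5 in C24 and 14.6 in sta1, 7.97-fold higher in prp31 than in zop1 (95% counting interval 7.04 to 9.05). Its neighbour AZI4 (AT4G12500, chromosome 4, 7413990 to 7414955) was at 18.202 FPKM in prp31, 2.48 in zop1, 4.14 in C24 and 2.75 in sta1, 7.33-fold higher (5.58 to 9.77). For both genes prp31 stood alone at the top, and the other 3 libraries lay close together.

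ACD6 (AT4G14400), a membrane ankyrin-repeat protein that raises salicylic acid signalling, was at 55.9 FPKM in prp31, 9.67 in zop1, 28.8 in C24 and 14.5 in sta1. That is 5.78-fold more in prp31 than in zop1. HAK5 (AT4G13420, chromosome 4, 7796782 to 7802251), the high-affinity potassium transporter of roots, was at 23.3 FPKM in prp31, 3.96 in zop1, 12.1 in C24 and 8.01 in sta1, 5.88-fold higher (5.29 to 6.55). GSTF14 (AT1G49860), a phi-class glutathione S-transferase gene, followed with 46.7 FPKM in prp31, 8.82 in zop1, 27.8 in C24 and 14.3 in sta1, 5.295-fold higher (4.67 to 6.02). All 3 genes had the same order, with prp31 highest, then C24, then sta1, and zop1 lowest.

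That order was shared by ANK (AT5G54610), an ankyrin-repeat gene, at 62.4 FPKM in prp31, 12.5 in zop1, 40.7 in C24 and 18.96 in sta1, 4.98-fold higher in prp31 than in zop1. It was shared too by the uncharacterised AT5G44568, at 84.9 FPKM in prp31, 19.4 in zop1, 69.6 in C24 and 33.3 in sta1, a ratio of 4.39 (3.78 to 5.12). AT4G31351, also uncharacterised, was at 11.6 FPKM in prp31 and 1.82 in zop1, but from only 17 and 2 reads, so its ratio of 6.34 has an interval of 1.504 to 56.5. ERF105, ZAT10, CAF1A and BGLU28 complete the 12 largest rises and are given with their pathways below. AT2G28755 (2.76), AT4G16855 (2.65) and AT2G01310 (2.39), protein-coding but listed at 0 in zop1, were not ranked.

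The 12 largest falls, that is, genes with more transcript in zop1, were likewise taken among protein-coding loci above 0 in both libraries. So AT1G07885 (-4.16, from 3 reads in zop1), AT3G29633 (-4.14) and AT3G04854 (-3.28), listed at 0 in prp31, do not enter. Nor do AT2G34238 and AT3G48346 (both -2.35), also at 0 in prp31. The first of the 12 was AT1G13609 (chromosome 1, 4662698 to 4663253), a defensin-like gene. It was at 1.77 FPKM in prp31, 36.7 in zop1, 0.582 in C24 and 35.6 in sta1, 20.8-fold higher in zop1 than in prp31. The adjacent defensin-like gene AT1G13608 was at 0.3699 FPKM in prp31, 4.47 in zop1, 0.8201 in C24 and 4.098 in sta1, but from 1 and 9 reads in prp31 and zop1. In both genes zop1 and sta1 were high, and prp31 and C24 were low.

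The same pairing held for the uncharacterised AT2G14247, at 3.36 FPKM in prp31, 32.2 in zop1, 2.93 in C24 and 32.2 in sta1, 9.597-fold higher in zop1 (7.17 to 13.1). TI1 (AT2G43510), a trypsin inhibitor gene, was at 8.56 FPKM in prp31, 37.1 in zop1, 10.3 in C24 and 33.9 in sta1, 4.33-fold higher in zop1 (3.56 to 5.302). BHLH100, BHLH38 and IMA2 belong here too and follow with the iron genes.

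Other leading falls had other patterns. SAG29 (AT5G13170), a sugar transporter of the SWEET family named for senescence, was at 66.8 FPKM in prp31, 359.9 in zop1, 139 in C24 and 165 in sta1, 5.39-fold higher in zop1 than in prp31, with C24 and sta1 between them. AGP30 (AT2G33790), an arabinogalactan protein gene, had the same arrangement, at 6.87 FPKM in prp31, 30.9 in zop1, 14.6 in C24 and 15.1 in sta1, 4.49-fold higher in zop1 (3.96 to 5.11). AT5G23840, a lipid-recognition domain gene, was at 1.44 FPKM in prp31, 11.8 in zop1, 10.03 in C24 and 2.51 in sta1, so that prp31 and sta1 were low, with 8.22-fold more in zop1 than in prp31 (5.31 to 13.2).

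For the adjacent pair AT5G35480 and MRU1 (AT5G35490) the zop1 library alone was high. AT5G35480 was at 51.8 FPKM in prp31, 217 in zop1, 36.6 in C24 and 51.5 in sta1, 4.19-fold higher in zop1 than in prp31 (3.75 to 4.68). MRU1 was at 5.798 FPKM in prp31, 28.4 in zop1, 4.27 in C24 and 6.88 in sta1, a ratio of 4.9002 (4.12 to 5.85).

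**Figure D2:**
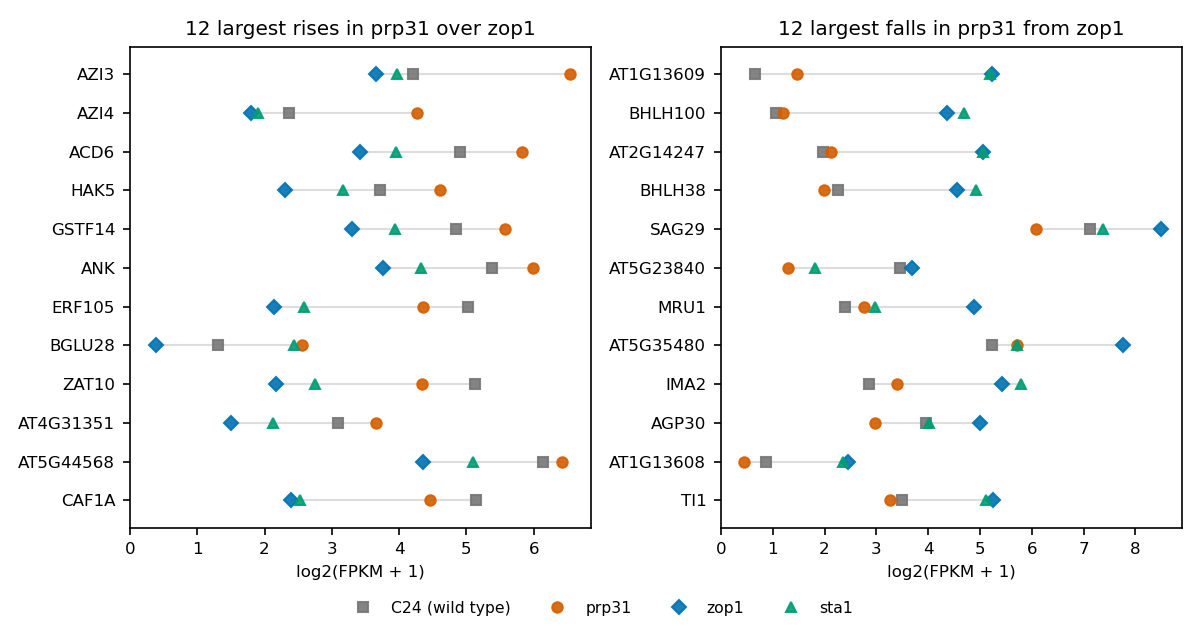
Levels, as log2(FPKM + 1), of the 12 genes with the largest rise (left) and the 12 with the largest fall (right) in prp31 relative to zop1. Only protein-coding loci above 0 in both libraries were ranked. There is 1 symbol for each library and no error bars because there is 1 library per genotype. On the left zop1 is lowest in every row, and on the right prp31 or C24 is lowest in every row, while the sta1 symbol lies with zop1 in the iron rows.

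The subgroup Ib bHLH genes and the IRON MAN genes were lower in prp31 than in zop1, while FIT and the subgroup IVc bHLH genes differed little. Of 18 listed genes 16 were tested, 6 were more than 2-fold lower in prp31 and none higher, where 0.873% of all tested loci were lower and 1.11% higher. The list median was -0.35 against -0.01 over all tested loci, and the same background shares and median apply to every list below. Every list was chosen with earlier results of these data known, so its counts describe and do not support. BHLH100 (AT2G41240, chromosome 2, 17198037 to 17199454) was at 1.299 FPKM in prp31, 19.6 in zop1, 1.08 in C24 and 24.96 in sta1, 15.1-fold higher in zop1 than in prp31. BHLH38 (AT3G56970, chromosome 3, 21084035 to 21085245) was at 2.98 FPKM in prp31, 22.4 in zop1, 3.79 in C24 and 29.3 in sta1, 7.52-fold higher (6.16 to 9.26). BHLH39 (AT3G56980), its neighbour, was at 2.01 FPKM in prp31, 9.62 in zop1, 1.94 in C24 and 13.3 in sta1, 4.79-fold higher (3.66 to 6.34). In all 3 of these subgroup Ib factor genes prp31 lay near C24, and zop1 lay near sta1. The fourth factor gene of the subgroup, BHLH101, was at 0.177 FPKM in prp31, 1.52 in zop1, 0.196 in C24 and 1.61 in sta1, below the filter.

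The IRON MAN genes encode short peptides that shield bHLH factors from the BTS ubiquitin ligase. IMA1 (AT1G47400) was at 3.03 FPKM in prp31, 14.5 in zop1, 1.45 in C24 and 15.9 in sta1, 4.79-fold higher in zop1 than in prp31 (3.41 to 6.85). IMA2 (AT1G47395), next to it, was at 9.53 FPKM in prp31, 41.7 in zop1, 6.29 in C24 and 54.2 in sta1, 4.37-fold higher (3.44 to 5.61). IMA3 (AT2G30766) was at 40.1 FPKM in prp31, 142 in zop1, 20.8 in C24 and 150.5 in sta1, 3.53-fold higher. The prp31 level lay above C24 and below zop1 and sta1 in all 3 genes.

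BTS itself, an iron-binding ubiquitin ligase that limits the response, was at 16.5 FPKM in prp31, 30.9 in zop1, 15.6 in C24 and 29.1 in sta1, a difference of -0.86. PYE, a bHLH repressor within the response, was at 9.54 FPKM in prp31, 14.8 in zop1, 8.94 in C24 and 15.7 in sta1, a difference of -0.58. Both moved with the subgroup Ib genes without reaching 2-fold. The other 8 tested regulators, among them FIT (25.2 FPKM in prp31 and 24.7 in zop1), the master factor of root iron uptake, and the subgroup IVc factors, had differences between -0.12 and 0.18.

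Downstream of the regulators the difference was uneven. Of 19 tested genes of iron uptake and distribution, 3 were lower in prp31 past 2-fold and none higher, with a median of -0.13. Above 0 were 7 of the 19, with NAS3 (0.92) and F6H1 (0.63) furthest. With 0.1 in place of 1 added to FPKM, NAS3 passed 2-fold as higher in prp31 (1.16). FRO3 (-1.02) and MYB10 (-1.38) then passed as lower. NAS2 (AT5G56080), which makes the iron chelator nicotianamine, was at 13.1 FPKM in prp31, 48.6 in zop1, 31.02 in C24 and 42.4 in sta1, 3.71-fold higher in zop1 than in prp31 (3.36 to 4.103). S8H (AT3G12900), which makes an iron-mobilising coumarin, was at 0.316 FPKM in prp31, 2.32 in zop1, 1.98 in C24 and 2.31 in sta1, 7.33-fold higher (4.197 to 13.7). OPT3 (AT4G16370) was at 35.2 FPKM in prp31, 72.99 in zop1, 24.99 in C24 and 62.7 in sta1, 2.07-fold higher in zop1. For NAS2 and S8H prp31 was the lowest of the 4 libraries, whereas for OPT3 it lay between C24 and sta1.

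FRO3, a mitochondrial ferric reductase gene, was just short of the rule at 19.5 FPKM in prp31, 39.6 in zop1, 21.4 in C24 and 35.3 in sta1. The root uptake genes did not follow. IRT1, the main iron transporter of the root surface, was at 368 FPKM in prp31, 325 in zop1, 467 in C24 and 383 in sta1, and FRO2, its ferric reductase partner, at 58.5 FPKM in prp31, 61.6 in zop1, 97.2 in C24 and 71.02 in sta1. Their prp31 minus zop1 differences were 0.18 and -0.07. None of 7 tested iron storage genes reached 2-fold. The ferritin genes FER1 (182 FPKM in prp31 and 257 in zop1) and FER4 (17.7 and 28.3) were somewhat lower in prp31, and VTL5, of the vacuolar iron transporter-like family, was higher, at 13.8 against 7.75 FPKM.

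Genes of sulfur limitation were higher in prp31 than in zop1, and zop1 was the lowest library at each of the 7 genes past 2-fold. This list was drawn up only after its own values had been seen, so its counts too describe and do not support. All 16 members were above 0, and 7 were more than 2-fold higher in prp31, with a median of 0.87. BGLU28 (AT2G44460), a glucosinolate-cleaving beta-glucosidase gene, was at 4.902 FPKM in prp31, 0.3098 in zop1, 1.48 in C24 and 4.44 in sta1, 15.8-fold higher in prp31 than in zop1 (10.3 to 25.5). GGCT2;1 (AT5G26220), which breaks down glutathione, was at 4.28 FPKM in prp31, 0.743 in zop1, 1.28 in C24 and 6.54 in sta1, 5.76-fold higher (3.68 to 9.44). For both, prp31 and sta1 were high, C24 was lower, and zop1 was lowest.

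SDI1 (AT5G48850), a repressor of glucosinolate synthesis under sulfur shortage, was at 16.1 FPKM in prp31, 3.704 in zop1, 11.8 in C24 and 18.7 in sta1, 4.36-fold higher in prp31 than in zop1 (3.63 to 5.26). LSU1 (AT3G49580), a small protein gene induced by low sulfur, was at 27.8 FPKM in prp31, 6.7003 in zop1, 17.1 in C24 and 25.9 in sta1, and its neighbour LSU3 (AT3G49570) was at 9.61 FPKM in prp31, 2.904 in zop1, 12.98 in C24 and 10.7 in sta1, ratios of 4.14 and 3.31 (2.27 to 4.96 for LSU3). LSU2 (AT5G24660) was at 42.3 FPKM in prp31, 17.397 in zop1, 31.8 in C24 and 36.3 in sta1, 2.43-fold higher (2.11 to 2.81). In each of these genes zop1 was the lowest library, and the other 3 lay within 2-fold of each other.

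The sulfate reduction enzymes moved the same way. APR3 was at 76.3 FPKM in prp31, 26.9 in zop1, 55.1 in C24 and 68.6 in sta1, 2.83-fold higher in prp31 than in zop1, and APR2, the main isoform, at 383 FPKM in prp31, 215 in zop1, 324 in C24 and 360.2 in sta1, a difference of 0.83. The root sulfate transporter gene SULTR1;1 had the smallest difference of the list, 0.11. Over all 16 genes the summed level was 896 FPKM in prp31, 489 in zop1, 766 in C24 and 792 in sta1.

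One sulfur gene window is shown because SDI1 marks this response and holds the core of the sulfur-responsive element. It is chr5:19807854-19808103 on the minus strand in TAIR10.1, and the capitals mark the core GAGAC, which here reads GTCTC because it lies on the opposite strand.
SDI1: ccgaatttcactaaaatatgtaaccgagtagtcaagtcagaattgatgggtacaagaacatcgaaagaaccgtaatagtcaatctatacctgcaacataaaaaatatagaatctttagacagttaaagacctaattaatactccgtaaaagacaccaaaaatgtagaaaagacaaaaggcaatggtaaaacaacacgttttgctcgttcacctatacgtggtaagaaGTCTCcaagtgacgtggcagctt
The core, searched on both strands, was in 4652 of 18517 windows (25.1%) and in 4 of the 16 windows of this list, those of LSU4, SDI1, BGLU28 and GGCT2;1. The share in the list was thus that of all windows. Among the 7 members past 2-fold 3 had a match (42.9%), a share that was not tested.

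**Figure D3:**
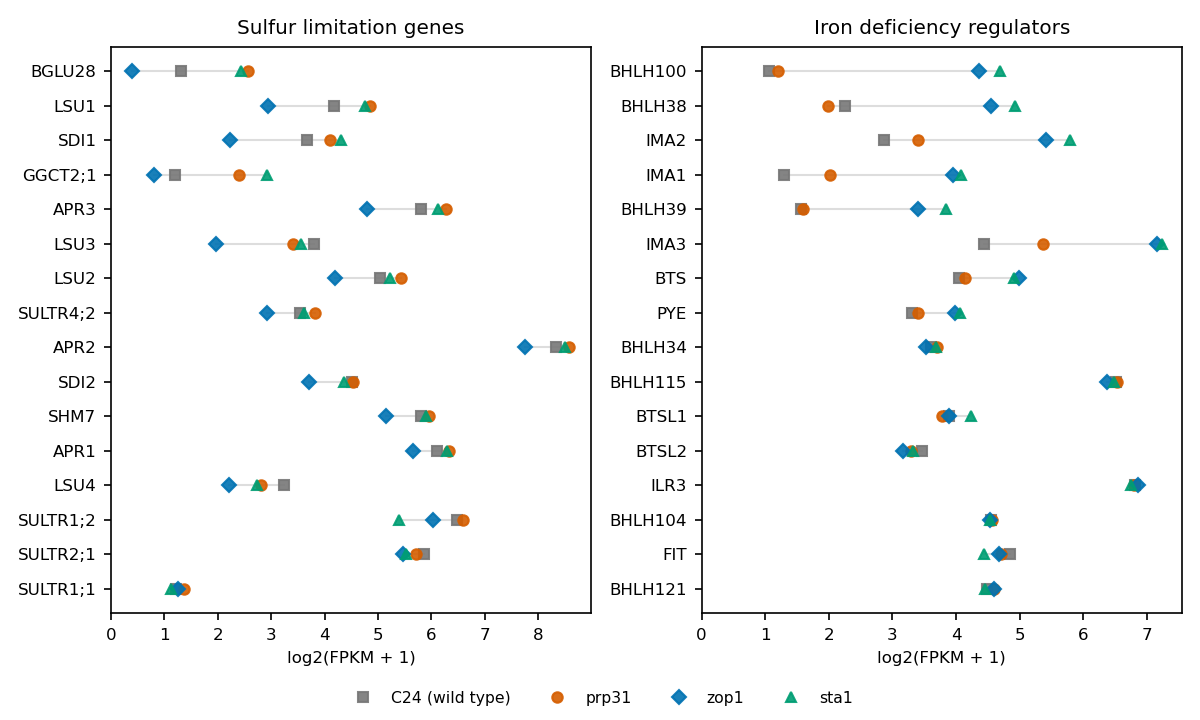
Levels as log2(FPKM + 1) of the 16 sulfur limitation genes (left) and the 16 tested iron deficiency regulators (right), ordered by the size of the prp31 minus zop1 difference, with 1 symbol for each library. On the left zop1 is the lowest symbol in the 7 upper rows. In the upper rows on the right zop1 lies by sta1. There prp31 lies by C24, except in the IMA rows, where it lies above C24 and below zop1 and sta1.

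Markers of plant organs were read beside these groups, since iron and sulfur uptake genes are strong in roots. The 12 root markers summed to 1665 FPKM in prp31, 1410.4 in zop1, 1397 in C24 and 1605 in sta1, with a median difference of -0.14. HAK5 was the only root marker past 2-fold (with a pseudocount of 0.1 CASP5 passed too, in the other direction), and 10 of the 12 were below 0. The higher sum in prp31 than in zop1 thus came from the 2 markers above 0 and does not describe the set. Seed storage transcripts were low in all libraries, with sums of 7.87 FPKM in prp31, 3.34 in zop1, 16.3 in C24 and 9.17 in sta1, and 4 of the 9 were listed at 0 in at least 1 library. CRC (AT4G28520), a cruciferin gene, was at 3.02 FPKM in prp31, 0.089995 in zop1, 5.37 in C24 and 0.229 in sta1, a difference of 1.88. The part of organ makeup in the iron and sulfur differences was not tested.

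Fast stress genes were higher in prp31 than in zop1. These genes encode zinc-finger and ERF transcription factors whose messengers appear within minutes of touch, wounding or cold and decay quickly. Of 17 tested zinc-finger and ERF genes 16 were above 0, and 7 were more than 2-fold higher in prp31, with none lower and a median of 0.66. ERF105 (AT5G51190), a cold- and stress-responsive ERF gene, was at 19.5 FPKM in prp31, 3.401 in zop1, 31.4 in C24 and 5.02 in sta1, 5.73-fold higher in prp31 than in zop1 (4.58 to 7.25). ZAT10 (AT1G27730), a zinc-finger repressor, was at 19.2 FPKM in prp31, 3.51 in zop1, 33.9 in C24 and 5.76 in sta1, 5.48-fold higher (4.46 to 6.796). ERF104 (AT5G61600), a target of a flagellin-activated kinase, was at 18.7 FPKM in prp31, 5.67 in zop1, 29.9 in C24 and 5.98 in sta1, 3.304-fold higher (2.82 to 3.88).

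In all 3 genes C24 was highest, prp31 next, and zop1 and sta1 were low. ERF6, ERF5, ERF11 and ZAT6 also passed 2-fold, with differences of 1.23, 1.12, 1.11 and 1.004. Among the RNA turnover, carrier and touch genes all 12 tested were above 0, and 4 passed 2-fold in prp31, with a median of 0.62. CAF1A (AT3G44260), a deadenylase gene, was at 21.003 FPKM in prp31, 4.26 in zop1, 34.5 in C24 and 4.78 in sta1, 4.92-fold higher in prp31 (4.13 to 5.91). DIC2 (AT4G24570), a mitochondrial dicarboxylate carrier gene, was at 12.3 FPKM in prp31, 2.84 in zop1, 28.7 in C24 and 3.196 in sta1, 4.32-fold higher (3.54 to 5.32). SZF1, a CCCH zinc-finger gene, was at 12.8 FPKM in prp31, 4.68 in zop1, 22.5 in C24 and 6.06 in sta1, and CML37, a calmodulin-like gene, at 1.905 FPKM in prp31, 0.419 in zop1, 1.63 in C24 and 0.538 in sta1.

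CAF1A, DIC2 and SZF1 had the order seen in the ERF genes, with C24 above prp31 and both above zop1 and sta1. The rapid stress response element, spelled CGCGTT and searched on both strands, was in 486 of 18517 windows (2.62%), in 8 of the 159 of loci higher in prp31 (5.03%) and in 1 of the 110 of lower loci (0.909%). It was in none of the 17 zinc-finger and ERF windows and in 3 of the 12 others, those of DIC2, TCH2 and CML23. That says only that these letters are not in the 250 bases searched.

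Lipid-transfer genes around EARLI1, a cluster on chromosome 4 linked to systemic immunity and cold, were mostly higher in prp31. Of 8 tested genes 6 were above 0 and 3 passed 2-fold, with a median of 0.89. AZI1 (AT4G12470), needed for azelaic acid-induced immunity, was at 108 FPKM in prp31, 34.96 in zop1, 49.5 in C24 and 96.7 in sta1, 3.08-fold higher in prp31 than in zop1. EARLI1 itself was at 59.8 FPKM in prp31, 33.9 in zop1, 60.9 in C24 and 28.2 in sta1, a difference of 0.802. The order thus varied within the cluster. AZI3 and AZI4 were high in prp31 alone, AZI1 in prp31 and sta1, and EARLI1 in prp31 and C24. Reads of near copies within this cluster may have been assigned to either copy.

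Salicylic acid and immunity genes were on balance higher in prp31. Of 21 tested, 17 were above 0 and 3 passed 2-fold, none lower, with a median of 0.30. Beside ACD6 these were LURP1 (AT2G14560), a gene induced by downy mildew, at 322 FPKM in prp31, 100.4 in zop1, 215 in C24 and 64.2 in sta1, and PBS3 (AT5G13320), an enzyme gene of salicylic acid synthesis, at 5.22 FPKM in prp31, 1.78 in zop1, 4.001 in C24 and 1.91 in sta1. PBS3 was 2.94-fold higher (2.42 to 3.599), and LURP1 3.21-fold. PR1, the usual marker of salicylic acid output, went the other way, at 34.3 FPKM in prp31, 56.9 in zop1, 125 in C24 and 16.4 in sta1, a difference of -0.72. PAD4, a partner of EDS1 in immune signalling, was at 21.2 FPKM in prp31 and 10.6 in zop1, short of the rule.

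Among 18 tested WRKY factor genes 1 was higher and 1 lower. WRKY40, a fast-responding negative regulator of defence, was at 3.64 FPKM in prp31, 1.17 in zop1, 4.84 in C24 and 1.32 in sta1, 3.12-fold higher in prp31 than in zop1 (2.26 to 4.39). WRKY70, which acts between salicylic acid and jasmonate signalling, was at 60.9 FPKM in prp31, 128 in zop1, 50.9 in C24 and 25.1 in sta1, 2.0997-fold higher in zop1. For WRKY70 zop1 was the highest and sta1 the lowest library.

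Jasmonate genes were near balance, with 13 of 22 tested above 0, 2 past 2-fold in prp31 and none lower, and a median of 0.06. LOX2, the lipoxygenase of jasmonate synthesis, was at 181 FPKM in prp31, 86.8 in zop1, 91.1 in C24 and 165 in sta1, 2.08-fold higher in prp31. PDF1.3, a plant defensin gene with close copies, was at 5.92 FPKM in prp31, 1.94 in zop1, 0.978 in C24 and 1.63 in sta1, 3.05-fold higher (1.91 to 5.04). LOX2 was high in prp31 and sta1, and PDF1.3 in prp31 alone.

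Phosphate and nitrate genes leaned toward prp31 with few past 2-fold. Of 22 tested phosphate starvation genes 20 were above 0, with a median of 0.36, but only MGD3 (AT2G11810), a galactolipid synthase gene, passed 2-fold, at 3.26 FPKM in prp31, 0.727 in zop1, 0.534 in C24 and 1.44 in sta1. IPS1, a non-coding RNA that binds away the microRNA of the phosphate response, was at 57.1 FPKM in prp31, 30.7 in zop1, 22.8 in C24 and 33.4 in sta1, a difference of 0.87. All 7 tested nitrate genes were above 0, with a median of 0.43. The largest was NRT1.5, a nitrate transporter of the xylem path, at 80.3 FPKM in prp31, 53.2 in zop1, 74.9 in C24 and 67.4 in sta1.

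Photosystem and Rubisco genes shifted slightly and evenly. All 18 tested were higher in prp31, by 0.12 to 0.46, with a median of 0.26 and none past 2-fold. LHCB1.1, a light-harvesting protein gene with near-identical copies, was at 3361 FPKM in prp31, 2450.5 in zop1, 3372 in C24 and 3301 in sta1, the largest difference of the list (0.46). The summed level of the list was 68980 FPKM in prp31, 57387 in zop1, 67275 in C24 and 71422 in sta1. The zop1 library was therefore the low one.

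**Figure D4:**
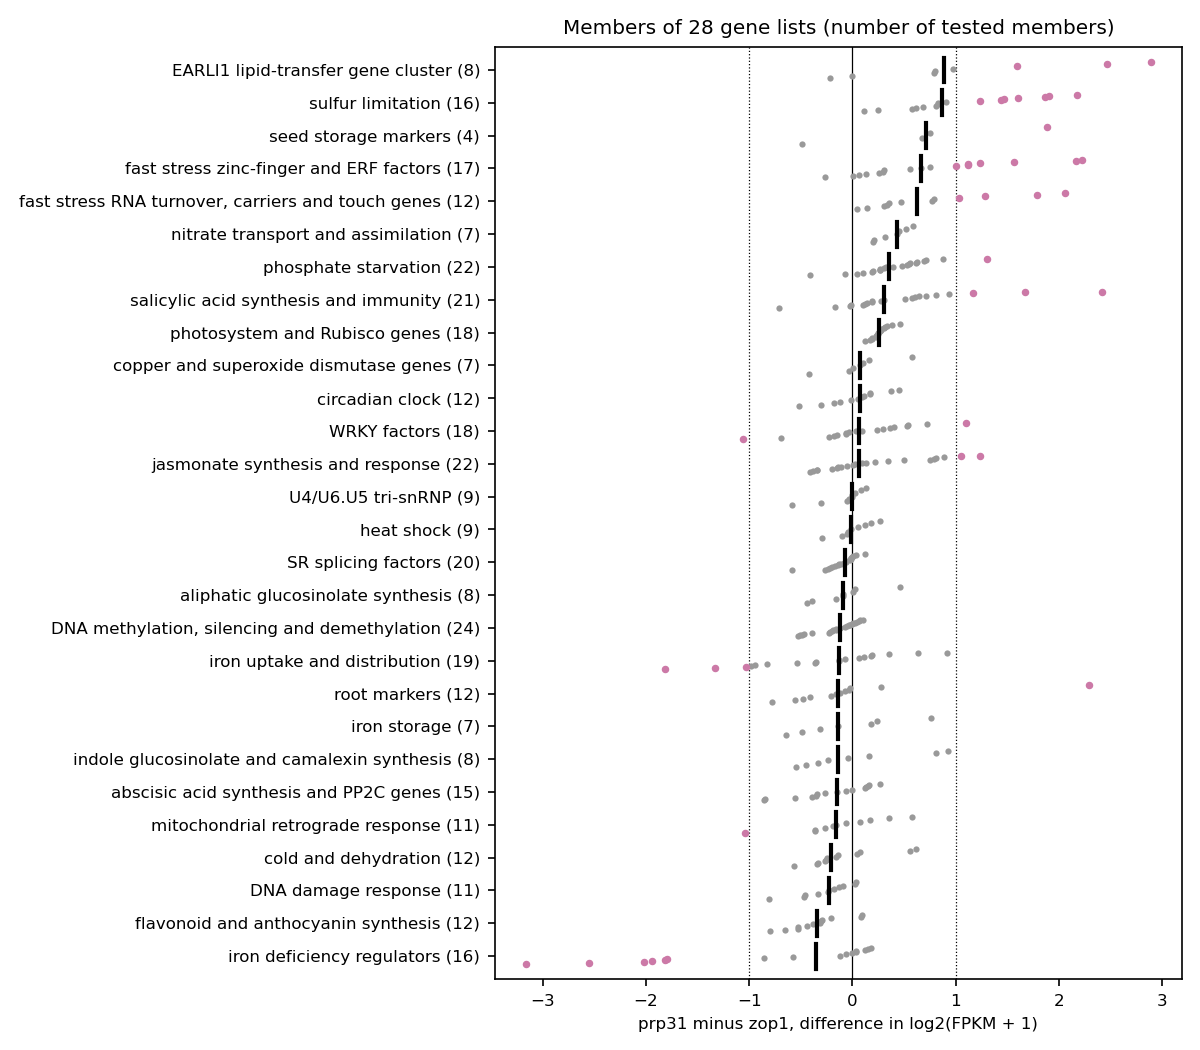
Differences in log2(FPKM + 1), prp31 minus zop1, of the tested members of 28 gene lists, with the number tested after each name. Each point is a gene, larger coloured points reach a difference of 1 in size, the black bars are list medians and the dotted lines mark 1 and -1. Most medians lie between -0.35 and 0.43, and the EARLI1 cluster, the sulfur genes, the seed storage markers and both fast stress lists lie above.

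Splicing and silencing genes differed little. None of the 9 tested tri-snRNP genes reached 2-fold (median -0.01), and the largest difference was that of PRP31 itself. None of the 20 SR splicing factor genes did (median -0.07), with RS31A furthest, at 4.71 FPKM in prp31 and 7.56 in zop1. Of 24 genes of DNA methylation, silencing and demethylation none did (median -0.12). MOM1, a silencing factor, was furthest, at 5.67 FPKM in prp31, 8.61 in zop1, 5.63 in C24 and 5.94 in sta1, and SDC, an F-box gene normally silenced by DNA methylation, was at 3.74 FPKM in prp31, 5.76 in zop1, 1.64 in C24 and 2.52 in sta1. ROS1, the DNA demethylase gene, was at 6.92 FPKM in prp31, 9.38 in zop1, 11.7 in C24 and 3.95 in sta1. Of the 24 genes 6 were above 0, and of the 20 SR genes 3, against 48.1% of all tested loci.

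In 9 further lists no member passed 2-fold. For cold and dehydration the median was -0.21, and COR15A, which protects chloroplasts in the cold, differed most, at 35.2 FPKM in prp31, 22.7 in zop1, 52.7 in C24 and 37.8 in sta1. For abscisic acid it was -0.15, and the phosphatase gene ABI1 differed most, at 61.7 FPKM in prp31, 113 in zop1, 67.5 in C24 and 72.1 in sta1. For DNA damage it was -0.23, and NAC044, a cell cycle arrest factor, differed most, at 3.51 FPKM in prp31, 6.91 in zop1, 1.07 in C24 and 5.87 in sta1. Below 0 were 8 of 12 cold genes, 10 of 15 abscisic acid genes and 9 of 11 DNA damage genes.

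For flavonoid synthesis the median was -0.34, with 10 of 12 below 0, and the regulator TT8 differed most, at 0.664 FPKM in prp31, 1.89 in zop1, 0.786 in C24 and 1.16 in sta1. Aliphatic glucosinolate genes had a median of -0.09, with MAM3, a chain-elongation enzyme gene, at 76.1 FPKM in prp31, 55.1 in zop1, 65.9 in C24 and 68.6 in sta1. Indole glucosinolate and camalexin genes had a median of -0.14, with PAD3, the last enzyme of camalexin synthesis, at 2.72 FPKM in prp31, 0.963 in zop1, 2.86 in C24 and 5.42 in sta1. That none of these genes passed 2-fold depends on the pseudocount of 1. With 0.1 the difference of PAD3 was 1.41 and that of TT8 -1.38, and MYB51, a regulator of indole glucosinolates, passed as well.

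Heat shock genes had a median of -0.02, with HSP17.8, a small heat shock protein gene, furthest at 3.05 FPKM in prp31, 3.98 in zop1, 3.22 in C24 and 3.69 in sta1. Clock genes had a median of 0.07, with ELF3, of the evening complex, furthest at 5.21 FPKM in prp31, 7.91 in zop1, 5.63 in C24 and 5.06 in sta1. Copper and superoxide dismutase genes had a median of 0.07, with FSD1, the iron superoxide dismutase gene, furthest at 1487 FPKM in prp31, 999.9 in zop1, 1278 in C24 and 1010.2 in sta1. The mitochondrial retrograde list had 1 gene past 2-fold. That was DTX3, a MATE transporter gene, at 3.301 FPKM in prp31, 7.83 in zop1, 1.08 in C24 and 10.99 in sta1, 2.37-fold higher in zop1 (2.01 to 2.81).

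The other libraries show which side of a difference is unlike the rest. Loci were picked for a gap between prp31 and zop1, so these 2 libraries hold the extremes more often by construction. Of the 159 higher protein-coding loci, prp31 was the highest library at 104 and C24 at 42, and zop1 was the lowest at 128. Of the 110 lower loci, zop1 was the highest library at 93, and prp31 was the lowest at 51, C24 at 35 and sta1 at 24. Relative to the midpoint of prp31 and zop1, C24 lay on the prp31 side at 127 of the 159 and at 88 of the 110 loci. The sta1 library lay on the zop1 side at 113 of the 159 but at only 43 of the 110 loci.

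A stricter count took protein-coding loci past 2-fold at which prp31 or zop1 differed by at least 1 from the median of the other 3. Those other 3 had to lie within 0.5 of each other. The zop1 library stood alone above at 37 and below at 18 loci, and prp31 alone above at 5 and below at 4. Some of these loci were listed at 0. AT2G28755 and AT4G16855 were above 0 only in prp31, and AT3G04854 and AT3G29633 only in zop1. MIF3, AT2G01310 and AT4G05091, counted as below in zop1, were at 0 there. Also counted as below in zop1, AT4G25707 and AT5G03204 each had only 6 reads in prp31 and 2 in zop1. The counting interval of their ratios, 0.400 to 22.7, holds 1. AT3G09950 had 44 reads in prp31 and 4 in zop1. KNAT3 (AT5G25220), a homeobox gene, was at 78.4 FPKM in prp31, 255 in zop1, 80.3 in C24 and 91.4 in sta1. ATAF1 (AT1G01720), a NAC factor gene of stress and sugar responses, was at 35.3 FPKM in prp31, 113 in zop1, 40.7 in C24 and 38.2 in sta1. CYP88A3 (AT1G05160), an enzyme gene of gibberellin synthesis, was at 5.65 FPKM in prp31, 15.6 in zop1, 4.72 in C24 and 5.03 in sta1. In each of these zop1 alone was high, and the other 3 libraries were nearly equal.

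The same held for AT1G67310, of the calmodulin-binding transcription activator family, at 10.6 FPKM in prp31, 30.4 in zop1, 11.2 in C24 and 9.71 in sta1, and for POLH, a DNA polymerase that copies past lesions, at 2.38 FPKM in prp31, 7.196 in zop1, 2.66 in C24 and 2.23 in sta1. Lower in zop1 alone was GATB, annotated as GLU-ADT subunit B, at 23.1 FPKM in prp31, 9.81 in zop1, 24.2 in C24 and 24.3 in sta1. So was GRP3S, a glycine-rich protein gene, at 166 FPKM in prp31, 64.1 in zop1, 149.6 in C24 and 152 in sta1. GSTF6 and GSTF7, adjacent glutathione S-transferase genes that can share reads, were at 55.4 FPKM in prp31, 19.3 in zop1, 47.9 in C24 and 55.03 in sta1 and at 24.5 FPKM in prp31, 6.99 in zop1, 19.8 in C24 and 24.7 in sta1. These examples of a single library apart were chosen after their values were seen.

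Loci with prp31 alone apart were few. LPLAT2 (AT1G63050), a lysophospholipid acyltransferase gene, was at 2.42 FPKM in prp31, 12.5 in zop1, 13.9 in C24 and 13.6 in sta1, 5.16-fold higher in zop1 than in prp31. PDIL5-4, a protein disulfide isomerase-like gene, was at 12.4 FPKM in prp31, 28.8 in zop1, 27.97 in C24 and 28.3 in sta1, and S8H, given above, was the third of the 4 low in prp31 alone. AT1G26250, a proline-rich extensin-like gene, was high in prp31 alone, at 149.8 FPKM in prp31, 61.04 in zop1, 63.5 in C24 and 66.7 in sta1. CLE1, a CLAVATA3-like peptide gene, was at 3.51 FPKM in prp31, 0.588 in zop1, 0.972 in C24 and 1.08 in sta1, but from only 8 reads in prp31 and 1 in zop1, and the counting interval of its ratio, 0.7995 to 265, holds 1.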

How the data were processed

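Messenger RNA was sequenced from 1 library each of C24, prp31, zop1 and sta1 seedlings, grouped by their titles and genotype labels. The authors deposited 1 table of FPKM values for 34133 loci. The TAIR10 build is named in the submitters' processing notes, with Cufflinks 2.0.1, Cuffdiff, TopHat2 2.0.12 and Bowtie as tools. Tool settings and strandedness are not stated there or in the labels, so overlapping antisense genes and close copies were not told apart.

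Differences were computed on log2(FPKM + 1), a scale on which low genes change less than their ratio, for loci that averaged 1 FPKM or more over the 4 libraries. With 1 library per genotype no test was made and no p-value is given. Printed folds are ratios of FPKM. RefSeq's TAIR10.1 annotation gave names, lengths and positions, and held 19130 of the 19240 tested loci. The table holds no positions.

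Whole reads were recovered from the steps between low FPKM values for 15757 of 24606 loci (64.0%), as lower bounds, and used only for depth and 95% exact binomial intervals. At 493 of 7696 single-transcript loci the steps matched a length of the transcript less 204 nt. Loci whose reads exceeded what the longest transcript allows were dropped (142).

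The members and the 28 gene lists (402 genes) were chosen with earlier results of these data known, and the sulfur list was added after its values were seen. Named genes are the 12 largest rises and 12 largest falls among protein-coding loci above 0 in both libraries, the mutated genes, the list members past 2-fold or else the largest of each list, and 3 loci each way listed at 0 in 1 library. Other genes of the lists, and genes at which 1 library stands apart, are named for their role or pattern and were chosen after their values were seen. Python 3.11.15, pandas 2.3.3, NumPy 2.4.6, SciPy 1.17.1 and matplotlib 3.10.9 were used, and the steps were tested on simulated data. Other pseudocounts, filters and scalings were tried as alternatives.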

Additional observations from a re-analysis of the deposited data

How the results depend on the processing

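The 2-fold rule on log2(FPKM + 1) gave 214 loci higher and 168 lower in prp31 than in zop1. A pseudocount of 0.1 gave 366 and 261, a pseudocount of 5 gave 92 and 82, a mean of at least 5 FPKM gave 139 and 111, and protein-coding loci of at least 300 nt alone gave 159 and 110. At least 20 recovered reads, an alternative chosen after seeing the data, gave 109 and 77. With no filter the counts were 235 and 197, with the mean taken over prp31 and zop1 only 216 and 176, and with median-of-ratios scaling 216 and 166. Fewer loci entered under the stricter filters, and the pseudocount sets how much a low locus must differ. The share of calls higher in prp31 was 56.0% and ranged from 52.9% to 59.1%. None of the 54 followed genes past 2-fold changed sign. Among the other followed genes and the 29 list medians, signs changed only near 0: with median-of-ratios scaling STA1, and with it the median of the mutated genes, went to 0.0065 and the tri-snRNP median to 0.0020, and with a mean of at least 5 FPKM the jasmonate median went to -0.052. With a pseudocount of 0.1 list members short of 2-fold passed it: FRO3, NAS3, MYB10, ORA47, NIMIN2, AIR1, PDF1.2A, JAZ4, MYB51, PAD3, TT8, CRA1, OLEO1 and CASP5. Of these FRO3, MYB10, TT8 and CASP5 were lower in prp31, and the rest were higher. Of the 54 genes past 2-fold, 36 stayed past it with a pseudocount of 5 and all 54 with a pseudocount of 0.1, no filter, the mean over prp31 and zop1, median-of-ratios scaling or protein-coding loci only. With a mean of at least 5 FPKM 42 of them entered and all 42 stayed. The seed storage median moved from 0.72 to 1.42 and 0.23 with pseudocounts of 0.1 and 5, and to 0.07 with no filter. No paired analysis was possible because each genotype has 1 library and no test was made. Depth limits loci with few reads, and nothing in these libraries shows how much plants of 1 genotype would differ.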

Other observations

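Some protein-coding loci past 2-fold in the same direction lay side by side, with at most 1 gene between them. There were 13 such runs with 27 loci in all among the 159 higher in prp31, and 7 runs with 19 loci among the 110 lower. Some members rest on few reads, such as GDU6 with 16 in prp31 and 1 in zop1. Whether there are more runs than loci scattered over the genome would form was not tested. The longest run lay on chromosome 4 from 11844506 to 11858970 (TAIR10.1). In it 6 of 9 genes spanned were lower in prp31 than in zop1, all of the lipid-transfer protein family. Its outer members AT4G22485 and AT4G22520 were at 18.5 FPKM in prp31, 55.3 in zop1, 47.2 in C24 and 15.4 in sta1 and at 13.7 FPKM in prp31, 34.9 in zop1, 32.95 in C24 and 12.8 in sta1. Here prp31 and sta1 were low, and C24 and zop1 high, in all 6 genes. These genes are close copies and can share reads.

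A run on chromosome 5 from 13687847 to 13700144 held AT5G35480, MRU1 and AT5G35510, a gene of the TIR-NBS-LRR immune receptor class. AT5G35510 was at 6.98 FPKM in prp31, 26.5 in zop1, 6.45 in C24 and 7.88 in sta1, high in zop1 alone like its neighbours. It rests on fewer reads than they do, 12 in prp31 and 34 in zop1, and was 3.80-fold higher in zop1 (1.92 to 8.06). Higher in prp31 were the cell wall-associated kinase genes WAK1, at 31.3 FPKM in prp31, 12.3 in zop1, 17.7 in C24 and 9.101 in sta1, and WAK2, at 27.4 FPKM in prp31, 9.96 in zop1, 16.5 in C24 and 10.3 in sta1. PCC1, a small membrane protein gene of pathogen response, was at 239 FPKM in prp31, 73.5 in zop1, 120.4 in C24 and 56.6 in sta1. The neighbouring TIR-domain genes AT1G72900, AT1G72910 and TIR were at 10.4, 36.3 and 110.4 FPKM in prp31 and at 4.35, 12.3 and 42.3 in zop1. In WAK1, WAK2, PCC1 and all 3 TIR genes prp31 was the highest library.

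Among tested protein-coding loci whose product in the annotation names a glutathione S-transferase, 4 of 35 were higher in prp31 (11.4%) and none lower. Of 71 whose product names lipid transfer, 5 were higher (7.04%) and 8 lower (11.3%). Over all tested protein-coding loci of at least 300 nt 0.859% were higher and 0.594% lower. The 8 lower lipid-transfer loci include the 6 close copies of the chromosome 4 run. The 4 glutathione S-transferase loci include the adjacent GSTF6 and GSTF7. Copies that can share reads are thus counted separately in these shares. For 1025 loci with a kinase product the shares were 1.07% and 0.195%, and for 239 with a methyltransferase product 0.837% and 2.09%. These words and runs were chosen after the values were seen.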
